A study of Mus musculus with 6 samples.

Results

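The peaks described here are those that start before 10 Mb (position 10000000) on chromosomes 1 to 19 of the mouse build mm9, taken from 6 deposited lists of chromatin immunoprecipitation (ChIP-seq) peaks. They number 706 of 7165 peaks in all. The other 6297 peaks of the same chromosomes are the rest they are compared with. Members were chosen by position alone: their number in a window was not fixed by the rule, and neither were their lengths, scores or overlaps. The lists come from mouse embryonic stem cells of 2 lines, J1 cells of wild type (WT) and their DNA methyltransferase knockout counterpart (TKO), made to lack the DNA methyltransferases on both alleles. The medium of both held 2 kinase inhibitors, CHIR99021 (3 µM, against GSK3) and PD0325901 (1 µM, against MEK). Each line was precipitated with anti-ATRX, anti-DAXX and rabbit IgG, the last as the background. There was 1 library per line and antibody. No difference between groups therefore has a replicate check, and none was tested. The labels do not say whether either line is 1 clone.

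Mouse autosomes carry their centromere at one end, next to the low end of the coordinates, and the assembled sequence begins after a gap that stands for it. Blocks of major satellite repeat flank the centromere and form pericentromeric heterochromatin, which is marked by histone H3 lysine 9 trimethylation and bound by HP1 proteins. ATRX, a chromatin remodeller, is known to gather at this heterochromatin. With the chaperone DAXX it deposits the histone variant H3.3 there and at telomeres. Most satellite sequence is missing from the assembly, so the window holds the sequence next to these blocks and a few satellite fragments rather than the blocks themselves. In these lists the lowest peak start lay at 2999985 on chromosome 9, and on every autosome some list had a peak starting at or before 4906043.

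Proximal peaks numbered 95 for WT ATRX, 114 for TKO ATRX, 38 for WT DAXX, 151 for TKO DAXX, 74 for WT IgG and 234 for TKO IgG. The window runs from 3 to 10 Mb, 7 Mb on each chromosome, and makes up 5.55% of the length compared, which ends at the highest peak end on each chromosome. It held 6.65% of the autosomal WT ATRX peaks (exact 95% interval 5.42 to 8.07), 6.99% of TKO ATRX (5.80 to 8.34), 6.76% of WT DAXX (4.83 to 9.16) and 7.46% of TKO DAXX (6.35 to 8.69). Of the IgG peaks it held 19.9% in WT (16.0 to 24.4) and 23.7% in TKO (21.1 to 26.5). The IgG lists were thus the ones with the most of their peaks in the window, and the ATRX and DAXX lists lay near its share of length. All intervals here cover counting error over peaks only, and neighbouring peaks are not independent.

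As a density, proximal WT ATRX peaks numbered 0.714 per Mb against 0.589 per Mb in the rest, a ratio of 1.21 (0.974 to 1.49). The ratio was 1.28 for TKO ATRX (1.05 to 1.55), 1.23 for WT DAXX (0.864 to 1.72) and 1.37 for TKO DAXX (1.15 to 1.62). It was 4.24 for WT IgG (3.24 to 5.49) and 5.28 for TKO IgG (4.54 to 6.12). The intervals of the WT ATRX and WT DAXX lists include 1, so no difference from the rest was detectable in them at this setting. For WT ATRX this depended on the setting. Counted from the lowest peak start of each chromosome its ratio was 1.26 (1.01 to 1.56), and with the window to 5 Mb 1.65 (1.16 to 2.29). In its upper 50% by score it was 1.73 (1.32 to 2.24). Without chromosome 9 it was 1.12 (0.882 to 1.39), and with the window to 20 Mb 0.804 (0.678 to 0.949). In the TKO DAXX list the ratio rested partly on chromosome 9. Without that chromosome it was 1.17 (0.965 to 1.40), and with peaks within 10 kb counted as 1 it was 1.09 (0.899 to 1.32).

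**Figure D1:**
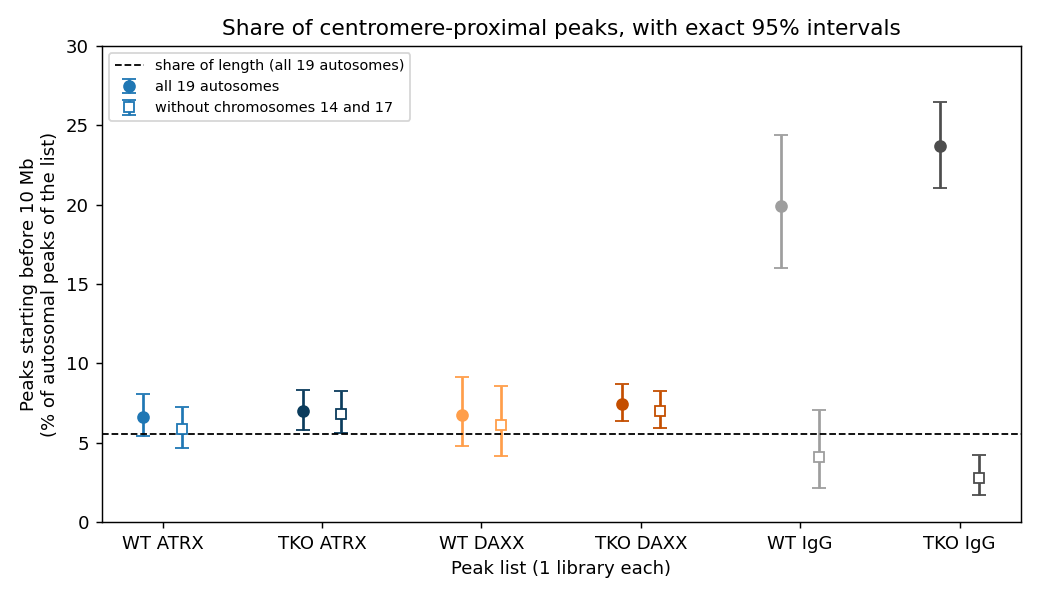
Share of each list's autosomal peaks that start before 10 Mb (y axis, %), for the 6 lists on the x axis, with exact 95% intervals over peaks. Filled circles use all 19 autosomes and open squares leave out chromosomes 14 and 17; the dashed line is the window's 5.55% of length. The IgG points fall from 19.9% and 23.7% to 4.12% and 2.77%, and the ATRX and DAXX points stay between 5.86% and 7.46%.

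The TKO lists held more proximal peaks than the WT lists, as they did in the rest. For ATRX the TKO list held 1.2 times the proximal peaks of WT (0.906 to 1.59), and 1.14 times in the rest (1.06 to 1.23). For DAXX the factors were 3.97 (2.77 to 5.83) and 3.57 (3.24 to 3.95), and for IgG 3.16 (2.43 to 4.16) and 2.54 (2.22 to 2.91). Each proximal interval overlaps that of the rest for the same antibody. The lowest score kept was 50.02 in WT DAXX but 70.01 in TKO DAXX. It was 70.01 and 70 in the WT and TKO ATRX lists, and 60.1 and 60.02 in the IgG lists. At a common score minimum of 70, 19 of 298 WT DAXX peaks were proximal, against 151 of 2024 in TKO DAXX. Both DAXX factors are larger there. List lengths also depend on depth and on the control of each call, neither of which is given, so these factors show no change in binding. The labels of 2 lists also bear on them. WT ATRX and TKO DAXX share 55 proximal peaks, and 686 in the rest, with the same start and end to the base, and every direction drawn from either list depends on its label.

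Within the window the peaks were not spread evenly. The first Mb, from 3 to 4 Mb, held 19 of the 95 WT ATRX, 33 of the 114 TKO ATRX, 8 of the 38 WT DAXX and 43 of the 151 TKO DAXX proximal peaks. Chromosome 9 supplied 11 of the 19 and 27 of the 43, but 6 of the 33 in TKO ATRX. Without chromosome 9 the first Mb held 1.5 TKO ATRX peaks per Mb, on 13 chromosomes with at most 5 on any of them, against 0.711 per Mb in the other 6 Mb of the window (all 19 chromosomes) and 0.670 in the rest. The WT ATRX list without chromosome 9 held 0.444 per Mb there, against 0.667 in the other 6 Mb and 0.589 in the rest. TKO DAXX held 0.889, against 0.947 and 0.827. WT DAXX held 0.444, on 8 peaks, against 0.263 and 0.231. The IgG peaks were most frequent between 6 and 7 Mb, with 39.2% of the WT and 41.5% of the TKO members. Chromosome 17 supplied 21 of those 29 WT peaks and 67 of those 97 TKO peaks.

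**Figure D2:**
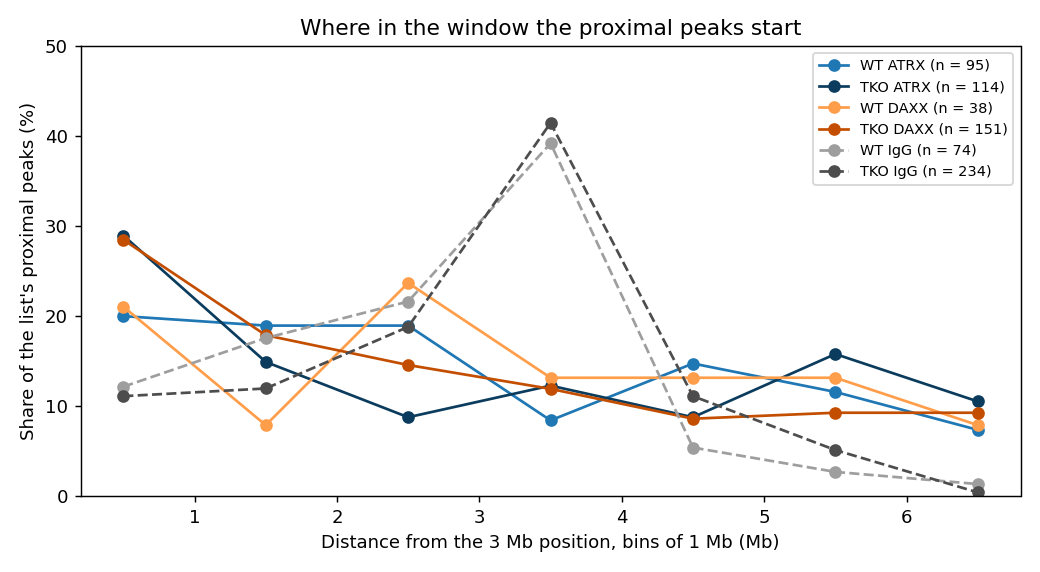
Share of each list's proximal peaks (y axis, %) in 1 Mb bins of distance from the 3 Mb position (x axis); solid lines are ATRX and DAXX, dashed lines IgG, and lines join points only to guide the eye. The TKO ATRX and TKO DAXX lists are highest in the first bin, at 28.9% and 28.5%, and both IgG lists are highest in the fourth.

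Chromosomes contributed unequally. The exact interval of a chromosome's proximal share lay above its share of length on chromosomes 9, 14 and 19 for WT ATRX, on 7 and 19 for TKO ATRX, on 14, 16 and 19 for WT DAXX, and on 7, 9 and 17 for TKO DAXX. For both IgG lists it did so on chromosomes 14 and 17. These intervals are not adjusted for the 19 chromosomes read in each list. Chromosome 19, of which the window is 12.01%, held 12 of 51 WT ATRX peaks before 10 Mb (23.5%, 12.8 to 37.5), 10 of 40 TKO ATRX peaks (25%, 12.7 to 41.2) and 6 of 19 WT DAXX peaks (31.6%, 12.6 to 56.6). The TKO DAXX list held 6 of 49 there (12.2%, 4.63 to 24.8). Chromosome 4 stood at the other end, with 0 of 86 WT ATRX peaks (up to 4.20%, exact interval) against a share of length of 4.59%, and 2 of 201 TKO IgG peaks. In TKO ATRX the chromosome with the most proximal peaks was 6, with 12 of 137 (8.76%, 4.61 to 14.8), against 4.79% of length. In TKO DAXX the chromosome with the most proximal peaks was 11, with 28, but it also held 374 in its rest, and its proximal share of 6.97% (4.68 to 9.91) spans its 5.89% of length. The median density ratio over the 19 chromosomes was 1.03 for WT ATRX, 1.26 for TKO ATRX, 0.945 for WT DAXX, 1.10 for TKO DAXX, 1.07 for WT IgG and 0.655 for TKO IgG. It was thus below the pooled ratio by most in the IgG lists, and about the same as the pooled 1.28 in TKO ATRX.

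**Figure D3:**
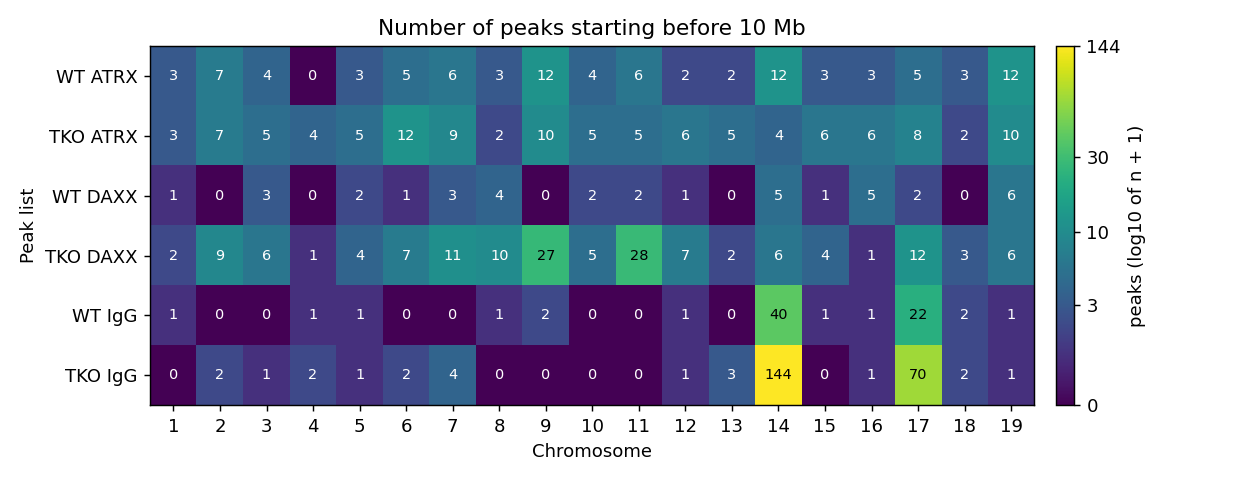
Number of peaks that start before 10 Mb on each chromosome (x axis) in each list (y axis); the number is printed in its cell and the colour follows log10 of the number plus 1. Chromosome 14 holds 40 WT and 144 TKO IgG peaks and chromosome 17 holds 22 and 70, and the highest numbers among ATRX and DAXX lists are 28 on chromosome 11 and 27 on chromosome 9, both TKO DAXX.

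The start of chromosome 9 held the largest cluster of peaks within 10 kb in the TKO DAXX and WT ATRX lists, with 27 and 11 peaks. The largest clusters of TKO ATRX and WT DAXX lay in the rest, with 4 and 6 peaks. Satellite fragments are known to have been placed at the start of chromosome 9 in mouse assemblies. In the first 40 kb lay 27 TKO DAXX peaks, all of that list's proximal peaks on chromosome 9, which covered 22538 bp of the 38296 bp from chr9:2999985-3038280. The same stretch held 11 WT ATRX peaks covering 11930 bp, and 5 TKO ATRX peaks covering 8794 bp up to 3030394. It held 0 WT DAXX, 1 WT IgG and 0 TKO IgG peaks. A missing peak was not shown to be unbound, since depth is unknown.

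The highest score of the TKO DAXX stretch was 1671.01, at chr9:2999985-3001853. The deposited score, taken here as the log10 of the peak's p-value times 10 with its sign turned, ranks peaks within a list. Ranks here are over the autosomal peaks of a list, and this peak was the second of its list by score. The peaks at chr9:3023282-3025215 (1228.02), chr9:3025356-3026052 (588.49), chr9:3019582-3020648 (578.12) and chr9:3034573-3036398 (545.63) were the next highest among the proximal ones. They ranked 4, 6, 7 and 8 in the list, so that 5 of its 10 highest autosomal peaks came from this stretch. The site at chr9:2999985-3001853 also led the autosomal WT ATRX peaks, with 416.54, and stood 25th in TKO ATRX, with 247.52. All 11 WT ATRX peaks of the stretch were identical to a TKO DAXX peak, and all 11 scored higher in TKO DAXX, by 97.06 to 1254.47 with a median of 332.01. Of the 44 identical proximal peaks on other chromosomes, 19 scored higher in TKO DAXX, 21 lower and 4 the same. The other 16 TKO DAXX peaks of the stretch scored 72.34 to 378.85, against 177.58 to 1671.01 for the 11. Scores also move with library depth and with the control, so this is a difference between calls.

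**Figure D4:**
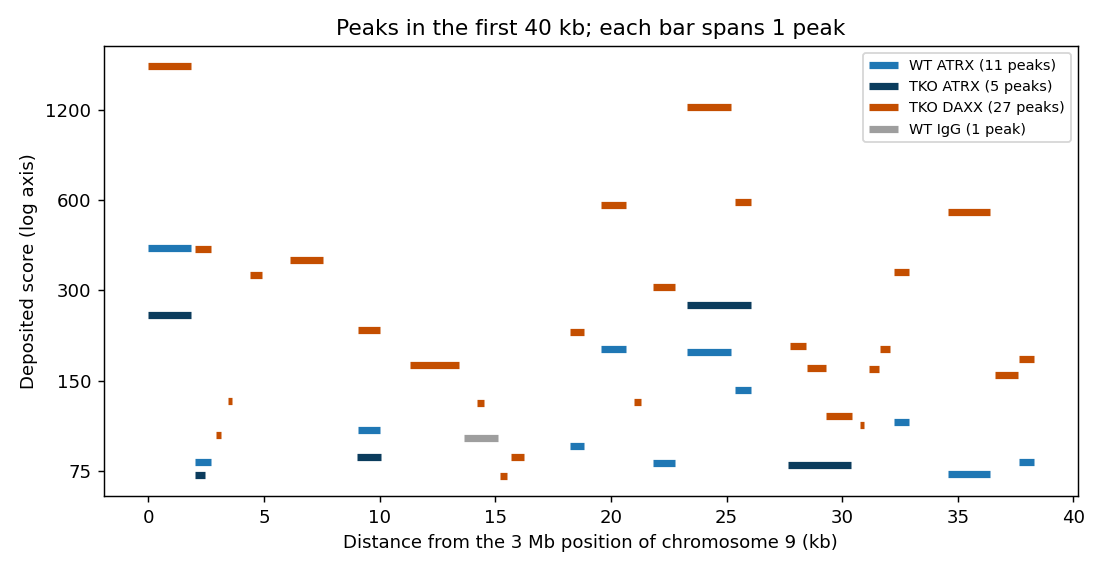
Deposited score (y axis, log scale) of each peak in the first 40 kb of chromosome 9, plotted as a bar over its extent by distance from the 3 Mb position (x axis, kb), for the 4 lists with a peak there. The TKO DAXX bars spread over the whole stretch and reach 1671.01, and the WT ATRX bars lie under TKO DAXX bars of the same extent.

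Outside chromosome 9 the highest WT ATRX peaks were chr7:7230690-7231061 (202.76) and chr19:3326970-3327948 (182.81). The 2 others of its 5 highest were chr9:3019582-3020648 (191.56) and chr9:3023282-3025215 (186.7). TKO ATRX was led by chr12:4536927-4538028, with a score of 685.7 that ranked second among the autosomal peaks of its list. Next came chr19:3326944-3327984 (355.69), chr9:3023298-3026056 (267.89), chr9:2999987-3001850 and chr4:7092964-7093127 (209.33). The last of these, 164 bp long, met no peak of any other list. Over the TKO ATRX list 6.44% of peaks met a TKO DAXX peak and 3.19% a WT ATRX peak. The WT DAXX members had other sites at the top: chr8:3500031-3500747 (629.72), chr8:8988070-8988773 (530.11), chr17:7443007-7443862 (374.75), chr19:4201325-4202046 (352.04) and chr19:4925318-4925975 (277.66). None of these 5 overlapped a peak of another list. Over the WT DAXX list 5.52% of peaks overlapped a WT ATRX peak and 1.6% a TKO DAXX peak, so this does not set the 5 apart. Of the 19 chromosomes 14 had a proximal WT DAXX peak, with at most 6 on any.

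Proximal peaks of 2 lists, TKO DAXX and WT ATRX, reached high scores more often than the rest of the list did. These lists share 55 identical proximal peaks, so they are not 2 independent observations. The same limit applies to their length and cluster counts below. A peak was counted as high where it stood in the upper 10% of its own autosomal list. By this rule 39 of 151 proximal TKO DAXX peaks were high (25.8%, 19.1 to 33.6), with 10% over the whole list and 8.76% in the rest. In WT ATRX 19 of 95 were high (20%, 12.5 to 29.5), with 10% over the list and 9.30% in the rest. The numbers were 14 of 114 in TKO ATRX (12.3%, with 10% over the list) and 4 of 38 in WT DAXX (10.5%, with 10.1%). They were 2 of 74 in WT IgG (2.70%, with 10.2%) and 17 of 234 in TKO IgG (7.26%, with 10%). Without chromosome 9 the share was 13.7% in TKO DAXX (8.19 to 21.0) and 16.9% in WT ATRX (9.54 to 26.7). Both intervals then include 10%, the level of the whole list. That of TKO DAXX also includes the 8.76% of the rest, but that of WT ATRX lies just above the 9.30% of the rest. The rest was not recounted without chromosome 9.

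Long peaks were counted in the same way. The upper 10% by length held 24 of 95 proximal WT ATRX peaks (25.3%, with 10% over the list), 35 of 151 in TKO DAXX (23.2%, with 10.1%) and 19 of 114 in TKO ATRX (16.7%, with 10.1%). It held 0 of 38 in WT DAXX (up to 9.25%, with 10.1%), 10 of 74 in WT IgG (13.5%, with 10.2%) and 22 of 234 in TKO IgG (9.40%, with 10%). Without chromosome 9 the shares were 15.7% in WT ATRX (8.61 to 25.3) and 12.9% in TKO DAXX (7.56 to 20.1). Median lengths in the window and the rest were close in the ATRX and DAXX lists: 334 against 324 bp in WT ATRX, 348.5 bp in both parts of TKO ATRX, 536.5 against 557.5 bp in WT DAXX and 336 against 327 bp in TKO DAXX. In WT IgG they were 428 against 454 bp. In TKO IgG proximal peaks were shorter, with 524 bp (465 to 576) against 605 bp (575 to 650). The median score was 89.51 against 81.11 in WT ATRX, with order-statistic intervals of 85.22 to 92.68 and 80.2 to 81.51. It was 86.19 against 82.48 in TKO DAXX, 81.9 against 80.24 in TKO ATRX and 67.66 against 72.7 in WT DAXX. Without chromosome 9 the proximal median score was 88.79 in WT ATRX (85.22 to 92.47) and 83.2 in TKO DAXX (80.61 to 86.19). Without the peaks identical in WT ATRX and TKO DAXX, the proximal median score was 83.2 in WT ATRX (80.4 to 91.15). In TKO DAXX it was then 81.7 (78.8 to 87.44). The medians of the rest were not recomputed in either case.

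Proximal peaks also stood closer together in some lists. A peak was counted as clustered where another peak of its list lay within 10 kb. This held for 44 of 151 proximal TKO DAXX peaks (29.1%, with 8.4% over the list) and 16 of 95 in WT ATRX (16.8%, with 5.18%). The start of chromosome 9 supplied 27 and 11 of these. It held for 8 of 114 in TKO ATRX (7.02%, with 5.77%), 2 of 38 in WT DAXX (5.26%, with 12.3%), 26 of 74 in WT IgG (35.1%, with 39.9%) and 149 of 234 in TKO IgG (63.7%, with 58.4%). The clusters of 3 or more ATRX or DAXX peaks, apart from chromosome 9, were chr14:7803053-7813965 in WT ATRX, chr12:3235625-3240678 in TKO ATRX and chr12:3235706-3240779 in TKO DAXX. The last pair cover the same stretch in the 2 TKO lists, each with 3 peaks.

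Co-occupancy was read as an overlap of at least 1 bp between the ATRX and DAXX lists of a line. DAXX and ATRX act as 1 complex, so shared sites are the ones at which both could be caught. In TKO cells 13 of 114 proximal ATRX peaks overlapped a DAXX peak (11.4%, 6.21 to 18.7), with 6.44% over the list and 6.07% in the rest. From the DAXX side it was 17 of 151 (11.3%, 6.70 to 17.4), with 5.43% over the list and 4.97% in the rest. Of these, 5 of the 13 and 8 of the 17 lay on chromosome 9. Without it the shares were 7.69% (3.38 to 14.6) and 7.26% (3.37 to 13.3). Both intervals then include the level of the whole list. In WT cells 5 of 95 ATRX peaks did so (5.26%, 1.73 to 11.9, with 2.24% over the list), and 5 of 38 DAXX peaks (13.2%, 4.41 to 28.1, with 5.52%). Chromosome 14 held 4 of the 5, and without chromosomes 14 and 17 the shares were 1.28% and 3.23%.

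The same antibody was compared between lines in the same way. For ATRX 8 of 95 proximal WT peaks overlapped a TKO peak (8.42%, 3.71 to 15.9, with 3.71% over the list) and 7 of 114 TKO peaks a WT peak (6.14%, with 3.19%). Chromosome 9 held 5 of the 8, and without it the WT share was 3.61% (0.752 to 10.2). For DAXX there was 1 such site, which made 2.63% of the WT members (with 1.6% over the list) and 0.662% of the TKO members (with 0.445%). Between WT ATRX and TKO DAXX 55 proximal peaks overlapped, all of them identical at both ends. They made 57.9% of the WT ATRX members (47.3 to 68.0, with 51.9% over the list) and 36.4% of the TKO DAXX members (28.8 to 44.6, with 36.6%), both near the level of the whole list.

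Joined where they shared at least 1 bp, the proximal ATRX and DAXX peaks made 321 regions. Of these, 257 were in 1 list, 56 in 2, 8 in 3 and 0 in all 4. The 8 made 2.49% of proximal regions, with 1.03% of all autosomal regions in 3 or more lists. They were chr6:5588287-5589171, chr7:7230576-7231256, chr10:7884628-7884981, chr19:3326944-3327984 and 4 on chromosome 9, at chr9:2999985-3001853, chr9:3002022-3002690, chr9:3009042-3010040 and chr9:3023282-3026056. All but the chromosome 7 region were in both ATRX lists and in TKO DAXX, and that one was in WT ATRX and both DAXX lists. The chromosome 19 region scored 182.81 for WT ATRX, 355.69 for TKO ATRX and 230.42 for TKO DAXX. Each of the 8 holds a peak identical in WT ATRX and TKO DAXX, and those do not count as independent calls. In TKO cells alone 6 regions were in both lists, among them chr12:4536927-4538037 (ATRX 685.7, DAXX 138.8) and chr12:3235625-3236210 (142.69 and 131.39).

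The IgG precipitates gave another picture of the same window. Chromosomes 14 and 17 held 62 of the 74 proximal IgG peaks of WT (83.8%, 73.4 to 91.3) and 214 of the 234 of TKO (91.5%, 87.1 to 94.7). On chromosome 14, 40 of 50 WT peaks and 144 of 180 TKO peaks started before 10 Mb, 80% in each line. On chromosome 17 it was 22 of 30 (73.3%) and 70 of 85 (82.4%). On the other 17 chromosomes the window held 12 of 291 WT IgG peaks (4.12%, 2.15 to 7.09) and 20 of 723 TKO peaks (2.77%, 1.70 to 4.24). The density ratio there was 0.748 for WT (0.382 to 1.33) and 0.495 for TKO (0.300 to 0.770), so the excess in the IgG lists came from these 2 chromosomes. Proximal chromosome 14 is known for recent segmental duplications.

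On chromosome 14 the TKO IgG peaks ran from 3073025 to 8381435. On chromosome 17 they were packed between 6 and 7 Mb, where 67 of 70 lay from 6293783 to 6907551, as did 21 of the 22 WT peaks. The 3 highest proximal TKO IgG peaks were there, at chr17:6810496-6813879 (score 584.12, 235 tags), chr17:6647572-6651098 (575.55, 236 tags) and chr17:6605084-6608440 (501.47, 220 tags). A tag is a sequenced read counted in the peak. Proximal chromosome 14 and 17 peaks held 5.18% and 4.89% of the tags in autosomal WT IgG peaks, and 8.70% and 8.38% in TKO. The proximal peaks of the other chromosomes held 7.76% of the tags in WT, on 12 peaks, and 2.73% in TKO, on 20. The 3 highest proximal WT IgG peaks were chr18:4195244-4196216 (176.07, 186 tags), chr5:3610292-3611491 (159.31, 63 tags) and chr14:5504876-5505668 (135.61, 49 tags).

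**Figure D5:**
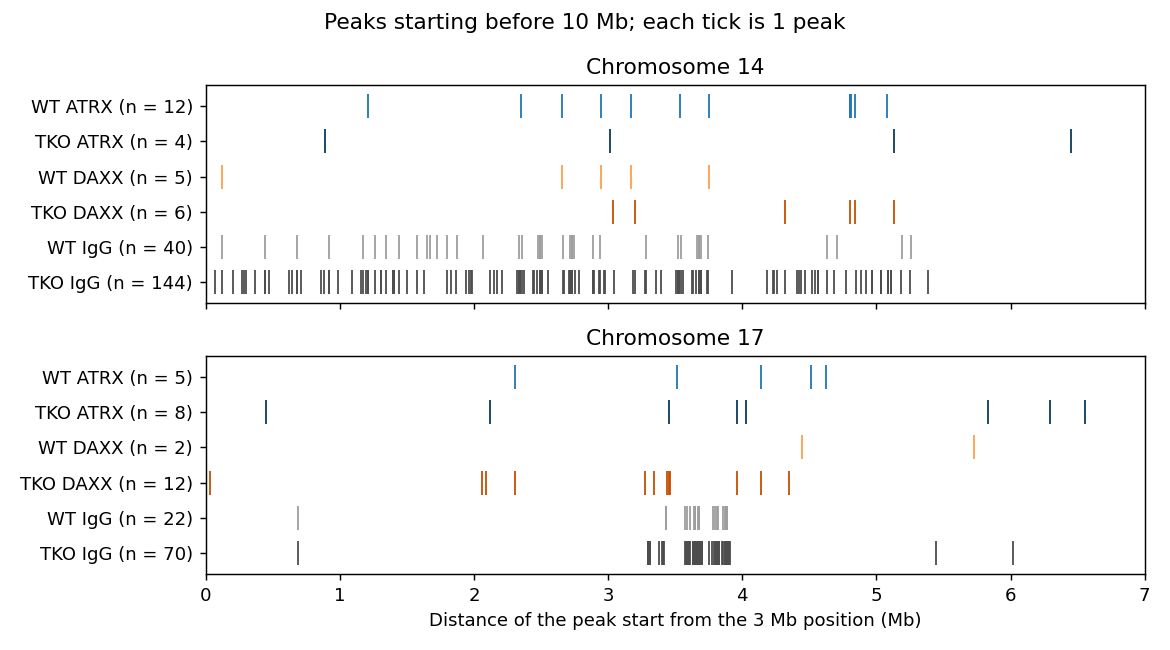
Start of each proximal peak on chromosomes 14 (upper panel) and 17 (lower panel), by distance from the 3 Mb position (x axis, Mb) and list (y axis, with its number of peaks); each tick is 1 peak. IgG ticks fill chromosome 14 over more than 5 Mb and gather between 3 and 4 Mb from the origin on chromosome 17, and ATRX and DAXX ticks are few.

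Many of these IgG peaks had the values of another peak. The IgG tables give 5 values per peak besides its position, namely length, summit, tags, score and fold enrichment. All 5 were equal to those of another peak of the list in 37 of 74 proximal WT peaks (50%, 38.1 to 61.9), with 28.3% over the list and 22.9% in the rest. In TKO it was 98 of 234 (41.9%, 35.5 to 48.5), with 26.4% over the list and 21.6% in the rest. Chromosome 14 had 26 of 40 WT peaks (65%) and 71 of 144 TKO peaks (49.3%) of this kind. The 793 bp WT peak at 5504876 recurred at 5886592 and 6690101, each time with 49 tags, a score of 135.61 and a fold enrichment of 97.2. The TKO list had 881 bp peaks with 76 tags and a score of 229.9 starting 3 bp before each of these. Counted once per set of equal values, the density ratio was 3.60 for WT (2.64 to 4.85) and 4.56 for TKO (3.84 to 5.40). Peaks that match in all values but the summit still count apart here. An example is the 881 bp TKO peak at 5717296, with 76 tags, a score of 229.9 and summit 692, against summit 193 at 5504873. The shares of equal peaks would be higher, and these ratios could differ, under a rule without the summit.

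The distances between equal peaks recurred as well. Over the 6 lists chromosome 14 held 92 pairs of equal proximal peaks, of which 19 were 1185053 to 1185245 bp apart, 6 in WT IgG and 13 in TKO IgG. Another 9 were 803509 to 803556 bp apart, with 2 in WT IgG, 5 in TKO IgG, and 1 each in WT ATRX and WT DAXX. These pairs are not separate observations. A set of more than 2 peaks can enter both classes, as the 881 bp TKO peaks do, and the lists share some of the sites. On chromosome 17 all 4 WT and 12 TKO pairs were 205 or 206 kb apart (rounded down). The ATRX and DAXX pairs rest on length and score only, the values these lists give. WT ATRX had 167 bp peaks with a score of 111.61 at chr14:5659252-5659418, chr14:5945304-5945470 and chr14:6748855-6749021. WT DAXX had 185 bp peaks with a score of 61.36 over each of them. They make 3 of the 4 sites on chromosome 14 shared by ATRX and DAXX in WT cells. Reads that map to more than 1 place can be given to each or to 1 of them, and the sources used here do not give which was done, so its part in these numbers was not tested.

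Over the whole window, peaks with the length and score of another peak were about as common as, or less common than, in the full ATRX and TKO DAXX lists. In WT DAXX their share was higher than over the list, on 4 peaks of which 3 are the chromosome 14 ones above. They were found in 20 of 95 proximal WT ATRX peaks (21.1%, with 24.6% over the list), 23 of 114 in TKO ATRX (20.2%, with 18.5%), 4 of 38 in WT DAXX (10.5%, 2.94 to 24.8, with 4.45%) and 22 of 151 in TKO DAXX (14.6%, with 20.1%).

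Overlap of ATRX and DAXX peaks with the IgG peaks of their own line was rare over the whole of each list, and 0 in the window. It was 0 of 95 for WT ATRX (up to 3.81%, with 0.14% over the list), 0 of 38 for WT DAXX (up to 9.25%, with 0.178%), 0 of 114 for TKO ATRX (up to 3.18%, with 0.184%) and 0 of 151 for TKO DAXX (up to 2.41%, with 0.247%). At these numbers of peaks a count of 0 does not set the window apart from the list. Across lines there were 2 cases. The TKO DAXX peak chr9:3014220-3014507 (126.04) lay in a WT IgG peak of 700 tags at chr9:3013660-3015124, the most tags of any proximal WT IgG peak. The WT ATRX peak chr14:4213608-4214192 (118.5) met a TKO IgG peak. On chromosome 14 the median distance to the nearest TKO IgG peak was 5715 bp for the 12 proximal WT ATRX peaks, 24854.5 bp for 4 TKO ATRX, 4721 bp for 5 WT DAXX and 8369.5 bp for 6 TKO DAXX peaks. The TKO IgG list was used here for the peaks of both lines. It holds 144 peaks from 3073025 to 8381435, and the distance of other positions there was not computed. The medians therefore do not show that these peaks lie closer to IgG peaks than other positions do. The IgG lists met each other in 47 of 74 proximal WT peaks (63.5%, 51.5 to 74.4, with 63.1% over the list) and 45 of 234 TKO peaks (19.2%, 14.4 to 24.9, with 23.3%). The control used in each call is not given, so these counts do not show that the ATRX and DAXX peaks are free of background.

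The limit of 10 Mb cut through no peak. The proximal peaks nearest to it started at 9802256 on chromosome 8 in both WT ATRX (84.17) and TKO DAXX (90.78), and at 9838767 on chromosome 3 in TKO ATRX (75.03). The nearest ones past it started at 10136805 (85.12), 10033111 (84.61) and 10041066 (70.78) in these lists.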

How the data were processed

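ChIP-seq peak lists of 6 libraries were used, grouped by the sample titles. The submitters' processing notes name Bowtie2, Picard and build mm9. How each was used, and the peak caller's version, settings and control, is not given in the sources used here. For ATRX and DAXX the authors deposited positions with a score per peak, whose scale is inferred from its values and from the IgG headers. The IgG tables deposited by the authors give the same score, a count of tags, the length and summit, and a fold enrichment (a ratio), per the file headers. No file gives library depth. BED starts were changed to count from 1. Shares and ratios carry exact Clopper-Pearson 95% intervals, and medians carry order-statistic intervals (Python 3.11.15, numpy 2.4.6, pandas 2.3.3, scipy 1.17.1). No test was run between groups or between the window and the rest. The named peaks are the 5 highest proximal ones of each ATRX and DAXX list and the 3 highest of each IgG list, with regions in 3 or more of the 4 ATRX and DAXX lists, regions that also hold an IgG peak, and the chromosomes with the most proximal peaks. Other peaks were chosen after their values were seen. Members and lists were chosen with earlier results of these data known. Procedures were tested on simulated peaks. Alternatives were score cuts, joining peaks within 10 kb, other windows, and leaving out chromosomes, identical peaks or peaks overlapping IgG. Peaks on X and Y were left out. Genes and sequences of mm9 were not used here.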

Additional observations from a re-analysis of the deposited data

How the results depend on the processing

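Of 304 recomputed shares, density ratios, medians and overlaps, 257 stayed inside the interval of the main setting and 43 fell outside it. The other 4 were density ratios whose interval lay above 1 and which fell below 1. Some of the 257 could not move, because the setting left their list as it was. Counting equal IgG peaks as 1, for example, does not touch the ATRX and DAXX lists. The 257 are therefore no measure of how stable the results are. The ratios of WT ATRX and WT DAXX, whose intervals include 1 in the main setting, also fell below it with the window to 20 Mb. That of WT DAXX did so too as the median over chromosomes (0.945). With the window to 20 Mb the density ratio was 0.843 for TKO DAXX, 0.811 for WT DAXX, 1.02 for TKO ATRX, 0.804 for WT ATRX, 2.18 for WT IgG and 2.55 for TKO IgG. With the window to 5 Mb it was 1.96 for TKO ATRX, 2.22 for TKO DAXX, 1.65 for WT ATRX and 3.59 for TKO IgG. As the median over chromosomes it was 0.655 for TKO IgG, 1.07 for WT IgG and 1.10 for TKO DAXX. Without chromosomes 14 and 17, chosen after seeing the data like the counting of equal IgG peaks as 1, it was 0.495 for TKO IgG and 0.748 for WT IgG, with shares of 2.77% and 4.12%. With peaks within 10 kb joined, TKO DAXX had a ratio of 1.09, a share of 6.04% and a median score of 83.0. With the upper 50% of each list by score, ratios were 1.68 for TKO DAXX and 1.73 for WT ATRX, and shares 8.99% and 9.24%. Median length was 413.5 bp in TKO IgG with peaks joined, 393 bp to 5 Mb and 451.5 bp without chromosomes 14 and 17. In WT IgG it was 190 bp to 5 Mb and 649 bp without those chromosomes, where median scores were 81.3 and 82.2. Median scores were 109.3 in TKO DAXX to 5 Mb, and 81.7 in TKO DAXX and 83.2 in WT ATRX without identical peaks. Overlap to 5 Mb was 0% for TKO DAXX with WT DAXX, for WT ATRX with WT DAXX and for WT DAXX with either TKO DAXX or WT ATRX. There it was 25.9% for TKO IgG with WT IgG and 16.2% for WT ATRX with TKO ATRX, which was 3.61% without chromosome 9. WT ATRX met WT DAXX in 1.05% at a score minimum of 70, 1.52% in the upper 50% and 1.28% without chromosomes 14 and 17, where the reverse was 3.23%. WT IgG met TKO IgG in 76.7% in the upper 50% and 41.7% without those chromosomes. The causes were not tested. Depth is unknown, so a site without a listed peak may still be bound. No paired analysis was possible because each group holds 1 library, and for the same reason no replicate could be left out.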

Other observations

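Chromosomes X and Y were outside the comparison. Before 10 Mb chromosome X held 2 of 12 WT ATRX, 4 of 19 TKO ATRX, 0 of 6 WT DAXX, 3 of 21 TKO DAXX, 1 of 19 WT IgG and 3 of 53 TKO IgG peaks. Every listed chromosome Y peak started before 10 Mb, with 12 in WT IgG, 16 in TKO IgG, 2 in WT DAXX and 1 each in TKO ATRX and TKO DAXX. How much of chromosome Y the build covers past 10 Mb was not examined, so these counts show no concentration there.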
